A study of Homo sapiens with 2 samples.

Results

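The genes described are the death ligand TRAIL, its receptors and the proteins that act directly beneath them, in A427 cells. They are 10 named genes out of 23686 gene symbols measured: TNFSF10, TNFRSF10A, TNFRSF10B, TNFRSF10C, TNFRSF10D, FAS, FADD, CASP8, CASP10 and CFLAR. They were chosen by name, and all 10 have a row in the deposited tables. A427 is an established line from a human lung carcinoma of the non-small cell type. Floating, sphere-forming cells and attached, adherent cells of the line were harvested apart, both from serum-containing medium, and poly(A) RNA was sequenced in 1 library for each growth form. The sample labels give the genotype of both as WT, while the series title calls the cells CTNNB1-mutated. The comparison asks how gene expression differs with the form of growth.

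TRAIL, the product of TNFSF10, is a membrane-bound cytokine of the tumour necrosis factor family that triggers apoptosis in many transformed cells and spares most normal ones. It binds the death receptors DR4 (TNFRSF10A) and DR5 (TNFRSF10B), whose cytoplasmic death domain recruits the adaptor FADD, which in turn recruits the initiator caspases CASP8 and CASP10. The decoy receptors DcR1 (TNFRSF10C) and DcR2 (TNFRSF10D) bind the ligand without passing on the death signal, and CFLAR, which encodes the caspase-like protein c-FLIP, competes with CASP8 for FADD. FAS is the receptor of another death ligand and uses the same adaptor and caspases.

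The floating library held 27148842 gene-assigned reads and the adherent library 26384670. Levels are given in TPM (transcripts per 1000000, a measure per transcript length), and differences as ratios of floating over adherent on scaled read counts. With 1 library per growth form there is no replicate check and no p-value, and every 95% interval is a counting interval between these 2 libraries, not an interval for the spread between cultures. A gene was tested if it reached 1 CPM (reads per 1000000, about 27.2 reads in the floating and 26.3 in the adherent library) in at least one library, which 13131 genes did. A gene was called higher or lower if its ratio reached 2-fold either way and its interval excluded equality. Among tested genes the median log2 ratio was -0.005 on scaled counts and -0.047 on deposited TPM. Small differences can therefore change direction between TPM and scaled counts, as for BIRC3 and TNFRSF1A below. Of the epithelial markers EPCAM, KRT8, KRT18, KRT19 and CDH1, all 5 in floating and 4 of 5 in adherent cells were at 1 TPM or more, summing to 1791 and 1304 TPM. KRT8 (581 TPM in floating and 327 TPM in adherent cells) and KRT18 (613 and 342 TPM) carried that difference. CDH1 (13.9 and 18.9 TPM) was higher in adherent cells, and EPCAM was close to equal (582 and 615 TPM, from 11783 and 11690 reads). Of 5 lymphocyte markers, 4 had 0 reads in each library (CD3E, CD3D, NKG7 and GNLY), and the summed level of the list was 1.95 TPM in floating and 2.84 TPM in adherent cells, all from PTPRC. Summed macrophage markers stood at 0.18 and 0.23 TPM, endothelial markers at 0.42 and 0.13 TPM, and fibroblast markers, mostly COL1A1, at 8.49 and 14.5 TPM, floating first. The part of these marker levels in the results below was not tested.

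Before the values, the reference promoters of the ligand gene and of the initiator caspase gene CASP8 are shown, because TNFSF10 stood farthest from equal between the growth forms and CASP8 nearest to it. Both are 300-base windows from RefSeq, build GRCh38.p14, running from 250 bases before to 50 bases after an annotated start. The TNFSF10 window lies on chromosome 3 at chr3:172523381-172523680, minus strand. The first of 3 CASP8 windows lies on chromosome 2 at chr2:201233213-201233512, plus strand. Capitals mark 2 copies of GAAA separated by 2 bases, the core of the interferon-stimulated response element, which in both windows reads on the strand opposite to the one printed.
TNFSF10: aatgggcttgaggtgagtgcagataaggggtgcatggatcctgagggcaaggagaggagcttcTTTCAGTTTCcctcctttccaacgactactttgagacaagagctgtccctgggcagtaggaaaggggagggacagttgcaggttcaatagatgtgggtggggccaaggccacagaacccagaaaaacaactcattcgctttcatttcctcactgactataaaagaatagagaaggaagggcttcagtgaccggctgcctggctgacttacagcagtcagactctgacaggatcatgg
CASP8: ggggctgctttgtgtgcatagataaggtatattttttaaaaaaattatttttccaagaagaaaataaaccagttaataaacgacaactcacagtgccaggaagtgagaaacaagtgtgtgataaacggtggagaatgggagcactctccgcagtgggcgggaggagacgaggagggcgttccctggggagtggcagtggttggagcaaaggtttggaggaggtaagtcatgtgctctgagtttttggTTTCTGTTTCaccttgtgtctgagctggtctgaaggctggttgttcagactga
The match begins 187 bases before the start in TNFSF10 and 3 bases before it in CASP8. This pair of GAAA copies, searched on both strands, is held by 3.57% of all 35116 promoter windows. Among the members, 5 have windows in the table, 12 in all, and these 2 windows are the ones that hold it. TATAAA, the TATA box, is in the TNFSF10 window 31 bases before the start, in the second CASP8 window and in 11.5% of all windows. TGANTCA, the AP-1 motif, is in neither printed window, although 1 window of FAS, 1 of FADD, 1 of CFLAR and both of the other CASP8 windows hold it, against 7.71% of all windows. None of the matches in the printed windows overlap each other. The motifs were chosen after the sequences were seen, and a match is a description of the letters only. The files hold no measurement at these promoters.

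The ligand gene was lower in floating cells. TNFSF10 had 11 reads in the floating library, against 56 in the adherent library, or 0.47 TPM and 2.55 TPM. It was thus a scarce transcript in both, and the counting intervals of the levels (0.235 to 0.841 TPM in floating, 1.93 to 3.31 TPM in adherent cells) did not overlap. The difference was 5.08-fold (interval 2.73 to 11.1), a log2 ratio of -2.35, and TNFSF10 was called lower. It lay at percentile 0.0457 of the log2 ratios of all tested genes, near the lower end. Genes with few reads reach the ends of this ranking more often. Of tested genes with fewer than 100 summed reads, as here, 17.4% were called, against 1.16% of the rest. TNFSF10 passed the 1 CPM limit in the adherent library only, so it could enter the comparison only by being higher there. In RNA of a whole culture, fewer cells that express a gene and less of its RNA per cell cannot be told apart.

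**Figure D1:**
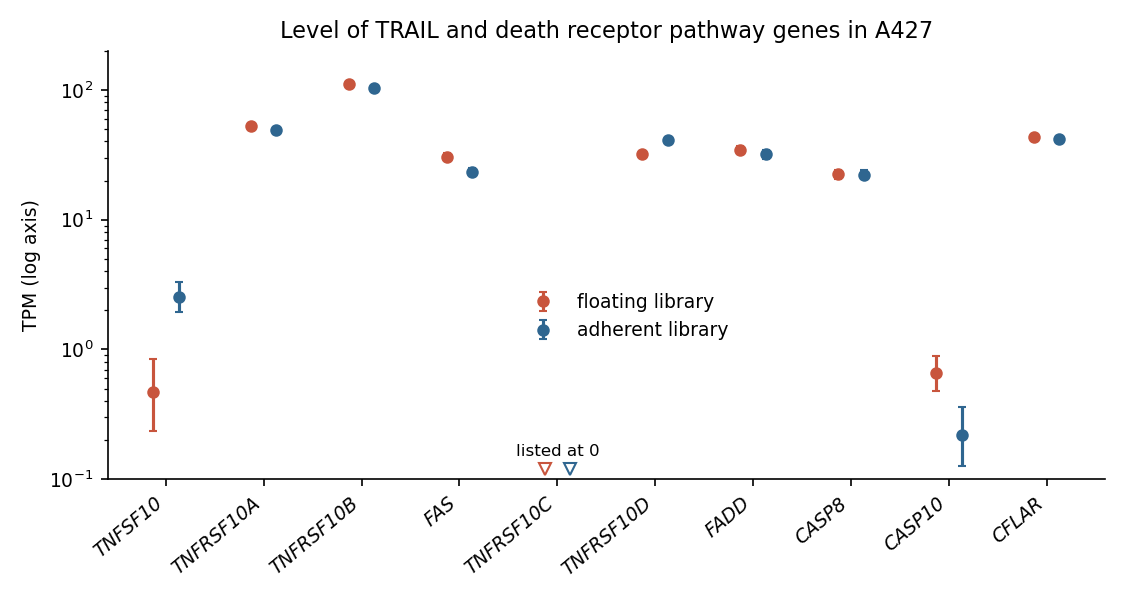
TPM on a log axis of the 10 genes in the floating and the adherent library, 1 point per library, with bars for the exact 95% Poisson counting interval and open triangles for genes listed at 0. TNFRSF10B is highest at 111 and 104.09 TPM, and TNFSF10 and CASP10 lie below 3 TPM in both libraries.

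The death receptors were abundant in both growth forms and differed little. TNFRSF10B (DR5) had 5830 reads in floating and 5126 in adherent cells, at 111 TPM and 104.09 TPM. It was the most abundant of the 10 genes in each library, at percentile 90.9 of genes with a level above 0 in floating cells and 90.1 in adherent cells. Its ratio was 1.10-fold (interval 1.06 to 1.14), short of 2-fold but with an interval above no difference. TNFRSF10A (DR4) had 1080 reads in floating and 945 in adherent cells, at 52.22 TPM and 48.71 TPM. Its ratio was also 1.10-fold (interval 1.01 to 1.21), so the pair of TRAIL death receptors kept nearly the same proportion to each other, with DR5 2.13 times the level of DR4 in floating and 2.14 times in adherent cells. The read ratio of TNFRSF10B to TNFRSF10A, floating over adherent, was 0.995 (interval 0.904 to 1.096).

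FAS, the receptor for FAS ligand, differed more than TNFRSF10A and TNFRSF10B. It had 1012 reads in floating and 729 in adherent cells, at 30.43 TPM and 23.39 TPM. The floating library was higher and the intervals of the levels did not overlap (28.6 to 32.4 and 21.7 to 25.2 TPM). The ratio was 1.34-fold (interval 1.22 to 1.48), at percentile 93.5 of all tested genes and not called. Relative to the summed reads of TNFRSF10A and TNFRSF10B, FAS was 1.22-fold higher in floating cells (interval 1.10 to 1.35), a comparison that does not depend on how the libraries are scaled. FAS overlaps ACTA2 in the RefSeq annotation (GRCh38.p14), and the use of strand in counting was not stated. ACTA2, a smooth muscle actin, had 496 reads in floating and 420 in adherent cells, a 1.14-fold ratio, and the antisense gene FAS-AS1 had 1 read in each.

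Of the decoy receptors, one was lower in floating cells and the other was not detected. TNFRSF10D (DcR2) had 1437 reads in floating and 1725 in adherent cells, at 32.13 TPM and 41.16 TPM. The adherent library was higher, again with intervals that did not overlap (30.5 to 33.8 and 39.2 to 43.1 TPM). The difference was 1.24-fold (interval 1.16 to 1.33), with floating cells lower, at percentile 11.7 of all tested genes and not called. TNFRSF10C (DcR1) had 0 reads in both, a count that allows up to 3 reads per library, or 0.1102 CPM in the floating and 0.114 CPM in the adherent one. At this depth DcR1 transcripts were not detectable, and it is the member that was not tested.

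The TRAIL receptors were close to equal in sum, and TNFRSF10D took a smaller share of it in the floating library. None of them was called, and the shares compare 1 library with 1 library. The 4 receptors together stood at 195 TPM in floating and 194 TPM in adherent cells. TNFRSF10D made up 16.4% of that sum in floating cells and 21.2% in adherent cells, TNFRSF10A 26.7% and 25.1%, and TNFRSF10B 56.8% and 53.7%. As a share of reads, which is not per length, the decoy receptors took 17.2% of 8347 reads in floating cells (exact Clopper-Pearson interval 16.41 to 18.04%) and 22.1% of 7796 reads in adherent cells (21.2 to 23.1%). Transcripts of the death receptors outnumbered those of the decoys 5.08 to 1 in floating cells and 3.71 to 1 in adherent cells. The read ratio of TNFRSF10D to TNFRSF10A plus TNFRSF10B was 0.732 of that in adherent cells (interval 0.676 to 0.792), whatever the scaling of the libraries.

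**Figure D2:**
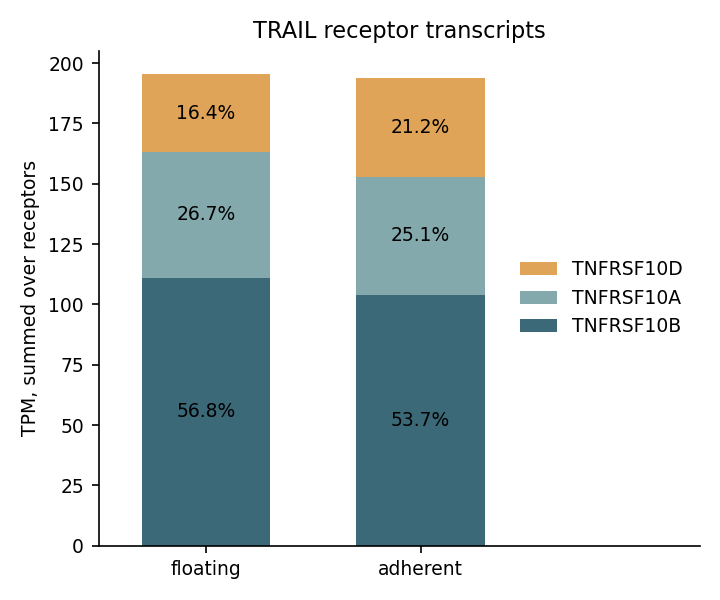
Stacked bars of TPM for the TRAIL receptors, with the floating library left of the adherent one and each receptor's percent of the sum printed in its segment; TNFRSF10C is at 0. The bars are about equally tall, at 195 and 194 TPM, and the TNFRSF10D segment is 16.4% in floating and 21.2% in adherent cells.

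The adaptor and the main initiator caspase were close to equal between the growth forms. FADD, which bridges receptor and caspase, had 765 reads in floating and 660 in adherent cells, at 34.67 TPM and 31.89 TPM. The ratio was 1.12-fold (interval 1.01 to 1.25) and the intervals of the levels overlapped. CASP8, the protease activated at the receptor, had 722 reads in floating and 698 in adherent cells, at 22.31 TPM and 22.25 TPM. Its log2 ratio was -0.0003 (interval -0.15 to 0.15), so a difference of more than about 1.11-fold in either direction lies outside the counting interval.

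CASP10, the second initiator caspase, was scarce and higher in floating cells. It had 45 reads in the floating library, against 16 in the adherent library, or 0.66 TPM and 0.22 TPM. The intervals of the levels did not overlap (0.481 to 0.883 and 0.126 to 0.357 TPM), and the ratio was 2.67-fold (interval 1.51 to 5.15), which called it higher. CASP10 passed the 1 CPM limit in the floating library only. Transcripts of CASP8 outnumbered those of CASP10 33.8 to 1 in floating and 101 to 1 in adherent cells, the latter from 16 CASP10 reads. The read ratio of CASP10 to CASP8, floating over adherent, was 2.72 (interval 1.49 to 5.20).

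CFLAR, the inhibitor, had 1411 reads in floating and 1333 in adherent cells, at 43.58 TPM and 41.54 TPM. Its ratio was 1.02-fold (interval 0.949 to 1.10), with no difference detectable at this depth. Its level was 1.95 times that of CASP8 in floating cells and 1.87 times in adherent cells. The change of the CFLAR to CASP8 read ratio, floating over adherent, was 1.02 (interval 0.898 to 1.17), which holds no difference. The antisense gene CFLAR-AS1 had 0 reads in both libraries.

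**Figure D3:**
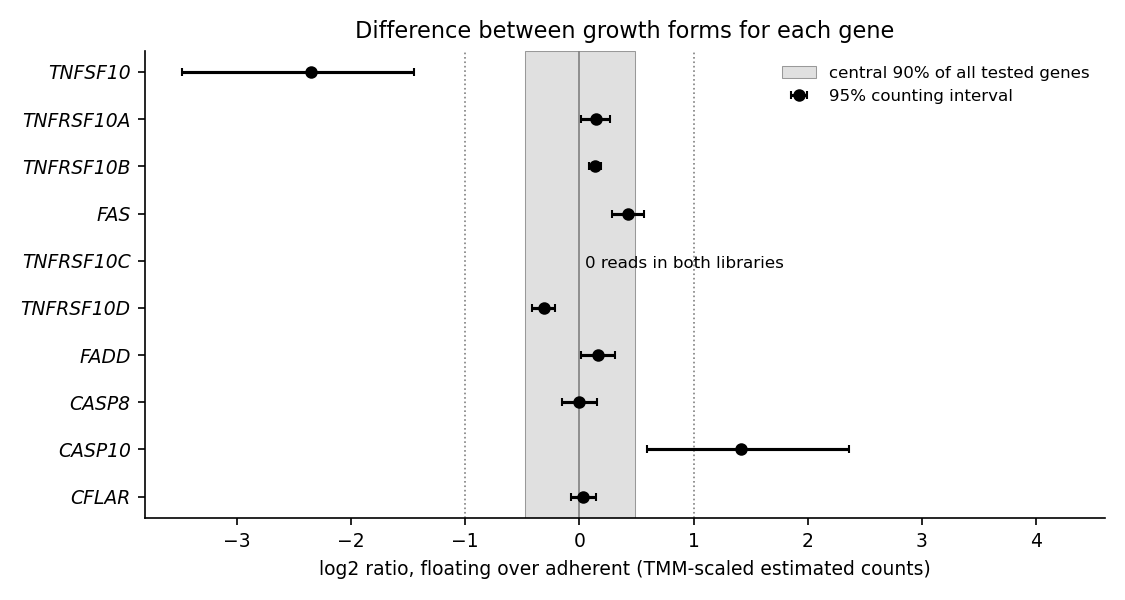
Log2 ratio of floating over adherent for each gene on TMM-scaled estimated counts, with 95% counting intervals; the grey band spans percentiles 5 to 95 of all tested genes and dotted lines mark 2-fold. TNFSF10 at -2.35 and CASP10 at 1.41 lie outside the band, and the other 7 tested genes lie inside it.

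Over the list, 9 of 10 genes were tested, 1 was called higher (CASP10) and 1 lower (TNFSF10), beside 1.28% and 0.754% of all tested genes, or 2.03% in either direction. The called genes each passed the filter in 1 library only, and both had fewer than 100 reads summed over the libraries. Among tested genes with fewer than 100 summed reads, 17.4% were called in either direction, against 1.16% of those with at least 100. Counting intervals lay above 0 for 5 of the 9 genes (TNFRSF10A, TNFRSF10B, FAS, FADD and CASP10), beside 25.5% of all tested genes, and below 0 for TNFSF10 and TNFRSF10D, beside 25.6%. The intervals of FADD (lower end at log2 0.012) and TNFRSF10A (0.016) barely cleared 0. Across the alternative settings their log2 ratios ran from 0.12 to 0.17 and from 0.10 to 0.15, so the count of 5 can depend on the scaling. The median log2 ratio was 0.14, beside -0.005 for all tested genes. Within 1.5-fold lay 7 of the 9, beside 12249 of all 13131 tested genes.

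**Figure D4:**
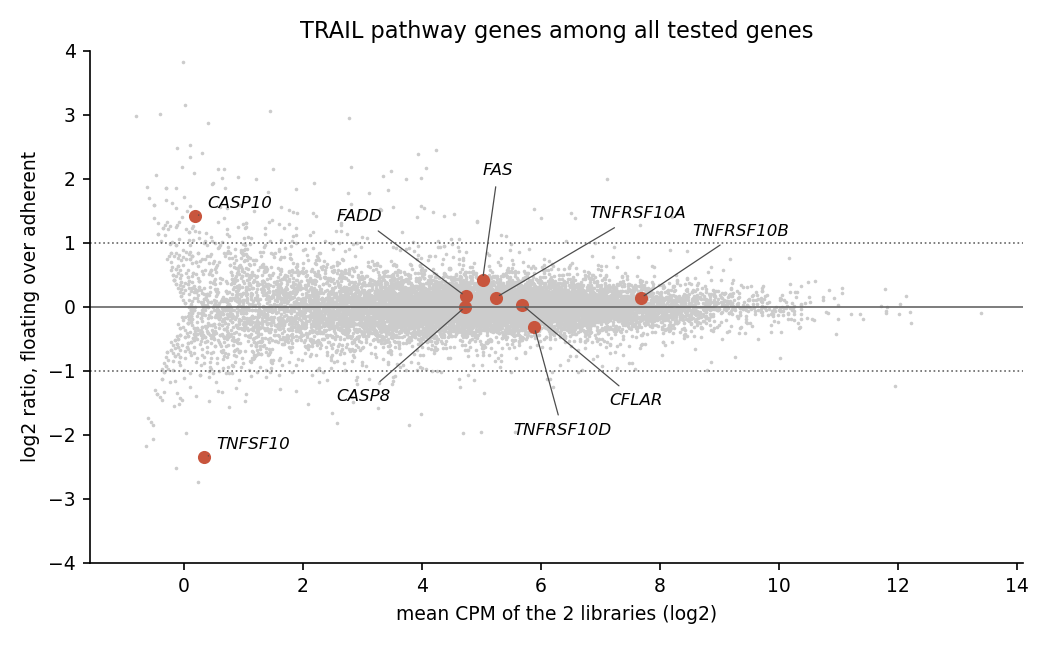
Log2 ratio of floating over adherent against the mean CPM of the libraries (log2) for all 13131 tested genes in grey and the 9 tested genes of the TRAIL pathway in red; dotted lines mark 2-fold, and 7 genes lie beyond the vertical limits of 4. TNFSF10 and CASP10 sit at the left, where the grey points spread most, and the others lie in the dense band around 0.

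By level, the order in floating cells was TNFRSF10B, TNFRSF10A, CFLAR, FADD, TNFRSF10D, FAS, CASP8, CASP10, TNFSF10 and TNFRSF10C. In adherent cells TNFRSF10D stood above FADD and TNFSF10 above CASP10, and the order was otherwise the same. In floating cells the intervals of these neighbours overlapped: FADD and TNFRSF10D, TNFRSF10D and FAS, and CASP10 and TNFSF10. In adherent cells those of CFLAR and TNFRSF10D and of FAS and CASP8 overlapped. Receptor and ligand were far apart in both libraries, with TNFRSF10B at 236 times the level of TNFSF10 in floating and 40.8 times in adherent cells. These multiples rest on 11 TNFSF10 reads in the floating and 56 in the adherent library, so they are imprecise.

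Reads per TPM reflect the effective transcript length of a gene, averaged over its isoforms as the authors' software estimated them. Relative to the median gene, this length was 0.946 in floating over adherent cells for CFLAR and 0.967 for CASP8. These are low values: over the 9097 genes of at least 10 TPM in both libraries the central 90% ran from 0.990 to 1.006, and CFLAR lay at percentile 0.605 and CASP8 at percentile 1.35. FAS, FADD, TNFRSF10A, TNFRSF10B and TNFRSF10D lay between 0.999 and 1.0003. For CASP10 the value was 0.879 (0.852 to 0.906 from the rounding of TPM alone), from 16 adherent reads, and for TNFSF10 it was 0.999 (0.986 to 1.01). The deposited tables are per gene, so the isoforms themselves were not analysed here and the error of these estimates is not known.

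The members lie in 5 places of the genome (RefSeq, GRCh38.p14). The 4 TRAIL receptor genes are neighbours on chromosome 8, CFLAR, CASP10 and CASP8 are neighbours on chromosome 2, TNFSF10 is on chromosome 3, FAS on chromosome 10 and FADD on chromosome 11. Of the 10 nearest protein-coding genes on either side, 6 were tested and none was called, beside 2.03% of all tested genes. Next to TNFSF10, the cholesterol ester hydrolase gene NCEH1 had 4056 reads in floating and 3575 in adherent cells, a 1.10-fold ratio, and GHSR, the ghrelin receptor gene, had 0 reads in both. RHOBTB2, which overlaps TNFRSF10B in the annotation, was 1.22-fold lower in floating cells with 425 and 501 reads, and CHMP7 on the other side of the receptors had a ratio of 1.08-fold. NDUFB3, a respiratory chain subunit beside CFLAR, was 1.46-fold higher (922 reads in floating and 611 in adherent cells), the largest ratio among the tested neighbours, and ALS2CR12 beside CASP8 had 12 and 18 reads. PPFIA1 beside FADD had a log2 ratio of 0.002. CH25H beside FAS had 2 and 0 reads and ANO1 beside FADD 14 and 18 reads, all floating first.

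Other genes of death receptor signalling were taken from 4 lists, 70 genes in all, of which 56 were tested, 1 was called higher and 0 lower, beside 1.28% and 0.754% of all tested genes, a share near that of the whole table. Intervals lay above 0 for 18 of the 56 and below 0 for 8, beside 25.5% and 25.6% of all tested genes, and the counts for each list are to be read against the same shares. Of 18 further death ligands and receptors of the same families, 8 were tested and none was called, with 4 intervals above 0 and 0 below (median log2 ratio 0.10). Of the other ligands, TNFSF12 (TWEAK) stood at 16.9 TPM in floating and 19.3 TPM in adherent cells, with an interval that held no difference. FASLG, the ligand of FAS, had 0 reads in both libraries, and TNF and LTA each had 1 read in floating and 0 in adherent cells. TNFRSF11B, the soluble TRAIL-binding receptor osteoprotegerin, had 0 reads in both. The most abundant were TNFRSF12A, the TWEAK receptor, at 187 TPM in floating and 168 TPM in adherent cells (1.15-fold), LTBR, the lymphotoxin beta receptor, at 125 and 124 TPM (1.05-fold), and TNFRSF1A, the main TNF receptor, at 76.3 and 76.5 TPM (1.03-fold). TNFRSF21 (DR6), a death domain receptor, was 1.71-fold higher (interval 1.52 to 1.93) and not called.

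Of 24 regulators at the receptor, 22 were tested and 1 was called, with 5 intervals above 0 and 4 below (median log2 ratio 0.007). The called gene was TNFAIP3, a ubiquitin-editing inhibitor of TNF receptor signalling, with 667 reads in floating and 222 in adherent cells, 2.90-fold higher (interval 2.49 to 3.40). BIRC3 and BIRC2, ubiquitin ligases that restrain RIPK1, were abundant at 418 and 201 TPM in floating and 420 and 237 TPM in adherent cells, with ratios of 1.03-fold for BIRC3 and 1.14-fold lower for BIRC2. TAX1BP1, a partner of TNFAIP3, stood at 159 and 163 TPM (log2 ratio 0.007). RIPK3, the kinase of necroptosis, had 0 reads in both libraries, while its substrate gene MLKL had 640 and 597 reads, floating first.

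Of 18 effector caspases and genes of the mitochondrial arm, all were tested and none was called, with 6 intervals above 0 and 2 below (median log2 ratio 0.06). The most abundant were BAX, a pore-forming BCL2 relative, at 315 TPM in floating and 299 TPM in adherent cells (1.08-fold), PARP1, a caspase substrate, at 147 and 152 TPM, and BIRC5 (survivin) at 147 and 119 TPM (1.27-fold). BID, which CASP8 cleaves to engage mitochondria, was 1.28-fold higher (interval 1.13 to 1.45), and CYCS, cytochrome c, 1.55-fold higher (1.499 to 1.61). The 2 with intervals below 0 were APAF1, 1.19-fold lower (1.11 to 1.28), and XIAP, 1.07-fold lower (1.02 to 1.12). Of 10 genes of receptor glycosylation and trafficking, 8 were tested and none was called, with 3 intervals above 0 and 2 below (median log2 ratio -0.01). CAV1 stood at 160 and 168 TPM, SRP72 at 96.1 and 90.8 TPM and SRP54 at 91.2 and 94.8 TPM, floating first. GALNT14, an enzyme that O-glycosylates death receptors, was at 28.1 TPM in floating and 20.1 TPM in adherent cells, 1.44-fold higher (interval 1.297 to 1.59). The 2 below 0 in this list were CDH1, 1.31-fold lower (1.20 to 1.43), and ARAP1, 1.09-fold lower (1.04 to 1.15). Genes named from these lists other than the called gene and the 3 most abundant of each list were picked after their values were seen.

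**Figure D5:**
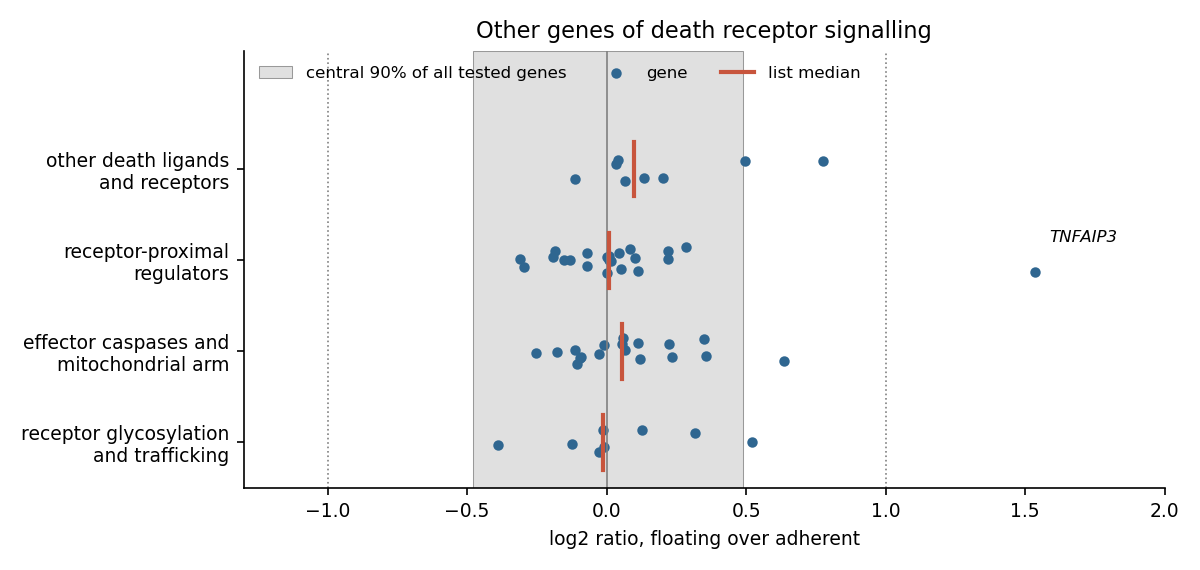
Log2 ratio of floating over adherent for the tested genes of 4 lists, 1 point per gene with vertical jitter, red bars for list medians, a grey band for percentiles 5 to 95 of all tested genes and dotted lines at 2-fold. TNFAIP3 at 1.54 is the one gene past 2-fold, and the list medians lie between -0.01 and 0.10.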

How the data were processed

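Poly(A) RNA of A427 cells was sequenced in 1 floating and 1 adherent library. Per the labels' protocols, DNase-treated total RNA went into a KAPA mRNA library kit. RSEM 1.3.3, STAR 2.5.3a and FastQC 0.11.1 and the build hg19 are named, per the submitters' processing notes. The annotation, the settings and whether strand was used were not given in the sources used here. Deposited by the authors were estimated counts per gene symbol, with no normalization, and TPM values scaled to 1000000 per library. Decimals occur in 6.55% of floating and 6.38% of adherent counts, and in 0 of the 10 members.

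Counts were rounded and scaled by TMM in edgeR 4.0.16 (R 4.3.3), over the whole table. Log2 ratios used (count + 0.5) per effective library size. Intervals of ratios are exact Clopper-Pearson intervals conditional on summed reads, and those of levels are exact Poisson intervals. Reads are not independent molecules without molecular identifiers, so intervals and the limit of 3 reads for a count of 0 cover counting error only. With 1 library per group, edgeR's and DESeq2's tests were not run. The members, lists and thresholds were chosen with earlier results of these data known. Named were all members, their neighbours, and in each list the called genes and the 3 of highest mean TPM; further list genes were named after their values were seen. OTULIN was matched through its older symbol FAM105B and FLACC1 as ALS2CR12. Some genes of the lists are not reported here by name.

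A simulated pair of libraries was used to test the calculation for floating against adherent cells with 13087 genes tested: 50 of 50 genes changed 4-fold, 50 of 50 changed 3-fold, 28 of 50 changed 2-fold and 0 of 50 changed 1.5-fold were called, as were 5 of 12887 unchanged genes. The changed genes were drawn only from genes with more expected reads per library, before the change, than TNFSF10 or CASP10 had in either library. Their rates therefore do not cover these called members. Both libraries were simulated with Poisson counting error only, so the rates hold no spread between cultures. Alternative scalings were the upper quartile, library totals and size factors of DESeq2 1.42.0, and other alternatives were log2(TPM + 0.1), a prior count of 5, no filter, at least 5 CPM, and other call rules. Other steps ran in Python 3.11.15 (scipy 1.17.1, numpy 2.4.6, pandas 2.3.3).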

Additional observations from a re-analysis of the deposited data

How the results depend on the processing

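The log2 ratios of the 9 tested genes kept their side of the 2-fold rule, and their direction except for CASP8, under upper-quartile scaling, library totals, size factors of DESeq2, deposited TPM, a prior count of 5 and no filter. TNFSF10 ranged from -2.36 to -1.98, CASP10 from 1.20 to 1.42, FAS from 0.38 to 0.43, TNFRSF10D from -0.36 to -0.30, and CASP8 from -0.01 to 0.01, on both sides of 0. With at least 5 CPM, neither TNFSF10 nor CASP10 was tested, which left 0 members called higher and 0 lower. With a 4-fold rule 0 members were higher. Of all tested genes, 168 were higher and 99 lower. These counts were 286 and 164 without a filter, 64 and 41 at a minimum of 5 CPM, 426 and 381 at 1.5-fold, and 32 and 8 at 4-fold. Of the pathway lists, 1 gene was higher, against 2 with no filter (LTB, with 13 and 2 reads in floating and adherent cells, added), 3 at 1.5-fold and 0 at 4-fold. No paired analysis was possible because each growth form has 1 library.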

Other observations

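TNFSF10 is known as an interferon-inducible gene, so 18 other interferon-inducible genes were listed after its values were seen. Of these, 12 were tested, with 1 called higher (IFIT2, with 35 reads in floating and 14 in adherent cells) and 0 lower, beside 1.28% and 0.754% of all tested genes. IFIT2 passed the 1 CPM limit in the floating library only and had fewer than 100 summed reads, a class in which 17.4% of tested genes were called. Intervals lay above 0 for 5 and below 0 for 1, beside 25.5% and 25.6% of all tested genes, and the median log2 ratio was 0.15. The one below 0 was IRF1, an interferon-induced transcription factor, at 11.8 TPM in floating and 15.9 TPM in adherent cells (log2 ratio -0.38). ISG15, a ubiquitin-like protein induced by interferon, stood at 90.2 TPM in floating and 88.3 TPM in adherent cells (log2 ratio 0.07).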
